A study of Mus musculus with 32 samples.

Results

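Cytochrome P450 genes of families 1 to 4 were followed through colitis-driven tumor formation in the mouse colon. All gene rows whose symbol is Cyp, a family number from 1 to 4, a subfamily letter and a gene number were taken, which gave 75 of the 55291 genes counted. The 32 libraries were RNA-Seq of whole colon or isolated colon tumors from mice with a full-body constitutive loss of *Dnase1l3*, a secreted DNase (KO, called DNase MUT in the labels), and from WT mice. Whole colon was taken from 4 KO and 4 WT mice at each of 3 stages, which were D0 (no treatment), D19 (1 cycle of AOM/DSS and a 5-day recovery) and D80 (24 days after 3 cycles of AOM/DSS). Tumors came from 3 KO and 5 WT mice after 3 cycles. All D19, D80 and tumor mice of both genotypes had received azoxymethane (AOM), a carcinogen that is active only after oxidation, and dextran sulfate sodium (DSS) in drinking water, which injures the colon epithelium.

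P450 enzymes are heme proteins, held mostly in the endoplasmic reticulum, that put 1 atom of oxygen into a substrate with electrons from P450 oxidoreductase. Families 1 to 3 are best known for oxidizing drugs, carcinogens and steroids, and many enzymes of the Cyp2c, Cyp2j and Cyp4 groups also oxidize arachidonic acid, leukotrienes and other fatty acids. In the intestine they are made largely by absorptive epithelial cells. Cyp2e1 is the enzyme best known for the oxidation of AOM.

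Total counts per library lay between 18951121 and 47623288. The level of a gene is given as CPM, the share of a library's counts that fall on the gene in the usual unit of edgeR, scaled with TMM factors over all libraries. *Dnase1l3* itself stood at 5.08, 3.01, 1.65 and 3.33 CPM in KO colon, against 3.09, 2.39, 1.81 and 3.61 CPM in WT colon at D0. It stood at 3.66, 4.13, 0.702 and 6.77 CPM in KO colon, against 8.58, 7.22, 8.69 and 7.79 CPM in WT colon at D19. At D80 it ranged between 3.04 and 11.8 CPM in KO and between 3.14 and 8.85 CPM in WT colon, and in tumors between 3.54 and 8.84 CPM in KO and between 2.06 and 10.2 CPM in WT mice. Counts over the whole gene cannot show which exons were read, so they do not check the genotype labels. The labelled tissue held its markers, since all 10 surface colonocyte markers had counts in every group, with a summed level of 9409 to 15660.3 CPM in KO and 10242 to 14964 CPM in WT colon at D0. In 3 libraries the share of mitochondrial counts was high for their group, at 10.6% in the D19 colon of KO mouse 811, 15.1% in the D80 colon of WT mouse 581 and 8.02% in the tumor of KO mouse 544. The number before the dash in the sample titles differs between mice of a group and is used below as a grouping of unknown meaning. No number was shared between D0, D19 and D80 colon, so changes between these stages cannot be told apart from a difference between numbers.

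Of the 75 genes, 5 had no count in any library, 27 had 1 to 100 counts over all libraries, 25 had more than 100 and up to 10000, and 18 had more than 10000. Low counts kept 32 genes out of every test, and 43 were tested in at least 1 of 13 comparisons, 31 of them in all. Levels were compared between genes only per kilobase of exon. On that scale *Cyp2c55* led in WT colon at D0 with 904.5 CPM per kilobase, followed by *Cyp2c65* (89.8), *Cyp4f14* (77.4), *Cyp2d34* (47.2), *Cyp3a13* (47.0) and *Cyp2s1* (29.8). In WT tumors the order began with *Cyp2j6* (20.2 CPM per kilobase), *Cyp2d34* (14.2) and *Cyp4f16* (10.2), and *Cyp2c55* had dropped to place 16 with 1.74. The summed level of all 75 genes was 3051 ± 1349 CPM in KO and 3034 ± 579 CPM in WT colon at D0 (SD, n = 4 each), and 289.7 ± 31.6 CPM in KO (SD, n = 3) and 301 ± 80.6 CPM in WT tumors (SD, n = 5). *Cyp2c55* alone took 45.3 to 67.6% of P450 counts in KO and 52.5 to 64.2% in WT colon at D0, and 0.513 to 0.784% in KO and 0.381 to 1.87% in WT tumors.

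The first 2 of these genes in WT colon at D0 lie with 5 others followed here in a larger cluster of Cyp2c genes on chromosome 19 (GRCm38, GENCODE). The cluster also holds *Cyp2c29*, *Cyp2c38* and *Cyp2c39* between *Cyp2c66* and *Cyp2c67*, and *Cyp2c37*, *Cyp2c54*, *Cyp2c50* and *Cyp2c70* after *Cyp2c69*. Each of these had at most 36 counts over all libraries. *Cyp2c55* (ENSMUSG00000025002, 39007019-39042693), *Cyp2c65* (ENSMUSG00000067231, 39061015-39093944) and *Cyp2c66* (ENSMUSG00000067229, 39113898-39187072) follow each other on the plus strand. *Cyp2c67* (ENSMUSG00000062624, 39608842-39649051), *Cyp2c68* (ENSMUSG00000074882, 39688834-39741054), *Cyp2c40* (ENSMUSG00000025004, 39767071-39812814) and *Cyp2c69* (ENSMUSG00000092008, 39842814-39886799) follow further along on the minus strand. These are called the plus-strand and the minus-strand block below. The 4 genes of the minus-strand block are near copies, and only 64.0, 71.5, 54.1 and 57.4% of the 75-nt stretches of their exons, in the order given, occur in a single gene. Reads could therefore have been split or dropped between them, and the block is best read as a whole. In the plus-strand block all stretches of *Cyp2c55* were unique, and the share was 88.6% for *Cyp2c65* and 89.2% for *Cyp2c66*.

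The 150 bases before the RefSeq start of each of these 7 genes (RefSeq, GRCm38.p6) are shown because the 3 genes of the plus-strand block fell in WT colon at D19 and D80, while none of the minus-strand block did. Capitals mark CAAAGTCCA, a sequence of the kind bound by HNF4 factors, nuclear receptors of gut and liver epithelium. It was chosen after the sequences were seen and was searched on both strands.
Cyp2c55, chr19:39006869-39007018, plus strand: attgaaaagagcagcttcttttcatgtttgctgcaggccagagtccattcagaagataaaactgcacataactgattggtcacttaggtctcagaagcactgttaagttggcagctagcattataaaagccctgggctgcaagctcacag
Cyp2c65, chr19:39060856-39061005, plus strand: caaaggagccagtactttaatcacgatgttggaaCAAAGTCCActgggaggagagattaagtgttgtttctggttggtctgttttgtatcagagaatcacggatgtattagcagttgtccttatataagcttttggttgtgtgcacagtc
Cyp2c66, chr19:39113748-39113897, plus strand: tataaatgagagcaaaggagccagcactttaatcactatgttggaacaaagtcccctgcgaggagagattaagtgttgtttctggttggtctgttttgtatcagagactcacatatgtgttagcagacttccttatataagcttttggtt
Cyp2c67, chr19:39649043-39649192, minus strand: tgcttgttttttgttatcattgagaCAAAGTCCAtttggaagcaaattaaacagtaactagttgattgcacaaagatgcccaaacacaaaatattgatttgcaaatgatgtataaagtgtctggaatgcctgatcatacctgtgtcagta
Cyp2c68, chr19:39741102-39741251, minus strand: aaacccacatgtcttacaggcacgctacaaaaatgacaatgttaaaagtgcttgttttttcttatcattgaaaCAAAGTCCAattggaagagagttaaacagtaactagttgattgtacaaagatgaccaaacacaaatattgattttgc
Cyp2c40, chr19:39812815-39812964, minus strand: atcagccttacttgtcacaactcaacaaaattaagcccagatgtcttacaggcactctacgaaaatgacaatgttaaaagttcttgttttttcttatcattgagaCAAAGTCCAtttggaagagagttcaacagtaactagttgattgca
Cyp2c69, chr19:39886770-39886919, minus strand: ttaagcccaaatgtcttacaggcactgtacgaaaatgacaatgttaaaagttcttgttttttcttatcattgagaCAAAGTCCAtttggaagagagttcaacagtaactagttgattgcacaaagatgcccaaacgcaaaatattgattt
All 4 genes of the minus-strand block and *Cyp2c65* held the sequence, while *Cyp2c55* and *Cyp2c66* had no exact match in these letters. Over windows of 300 bases (250 before and 50 after the start), which were at hand for 62 of the 75 genes, 8 of 69 P450 windows held it (11.6%), against 0.475% of all 32851 windows. Since the sequence was chosen from the 7 genes shown, which hold most of these matches, this share does not test for an excess. The other P450 windows with the sequence were those of *Cyp2c70*, *Cyp3a11* and *Cyp3a16*, which had few counts in colon. The core letters of the Ah receptor element, GCGTG, stood in 20.3% of P450 windows and 32.4% of all windows, the nuclear receptor half-site AGGTCA in 29.0% and 16.3%, and TATAAA in 39.1% and 13.6%. Windows within the minus-strand block were 91.6 to 98.9% identical over their aligned bases, and those of *Cyp2c65* and *Cyp2c66* 94.5%. A match in these letters does not show that a factor binds there.

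Differential expression was tested with edgeR's quasi-likelihood test over all genes, with Benjamini-Hochberg adjustment, and a gene is called when its adjusted p is under 0.05 and its fold change over 2. Between KO and WT tumors the study's own rule was kept, which asks for p under 0.01 before adjustment and a fold change over the same limit. From D0 to D19, 2 genes rose and 10 fell of 36 tested in KO colon, where 8.95% of all genes tested rose and 2.52% fell. In WT colon 6 rose and 4 fell of 36, against 9.33% and 4.04% of all genes. At D80 against D0, 4 rose and 15 fell of 37 in KO colon (13.4% and 7.63% of all genes), and 2 rose and 4 fell of 37 in WT colon (7.07% and 3.25%). In tumors against D80 colon, 4 rose and 20 fell of 39 in KO mice (10.3% and 16.4% of all genes), and 2 rose and 26 fell of 38 in WT mice (8% and 13.5%). Falls thus made up 27.8% of the P450 genes tested at D19 and 40.5% at D80 in KO colon, against 11.1% and 10.8% in WT colon, and 51.3% in KO and 68.4% in WT tumors. Without D19 mouse 811, 19 P450 genes were called in KO colon at D19 (15.4% of all genes), and 8 without D19 mouse 804 (9.11%) or D0 mouse 872 (9.26%), while without mouse 581 WT colon had 11 calls at D80 (16.8%). No P450 gene was called between KO and WT at any stage, and 35 of the 75 genes were called in at least 1 comparison.

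**Figure D1:**
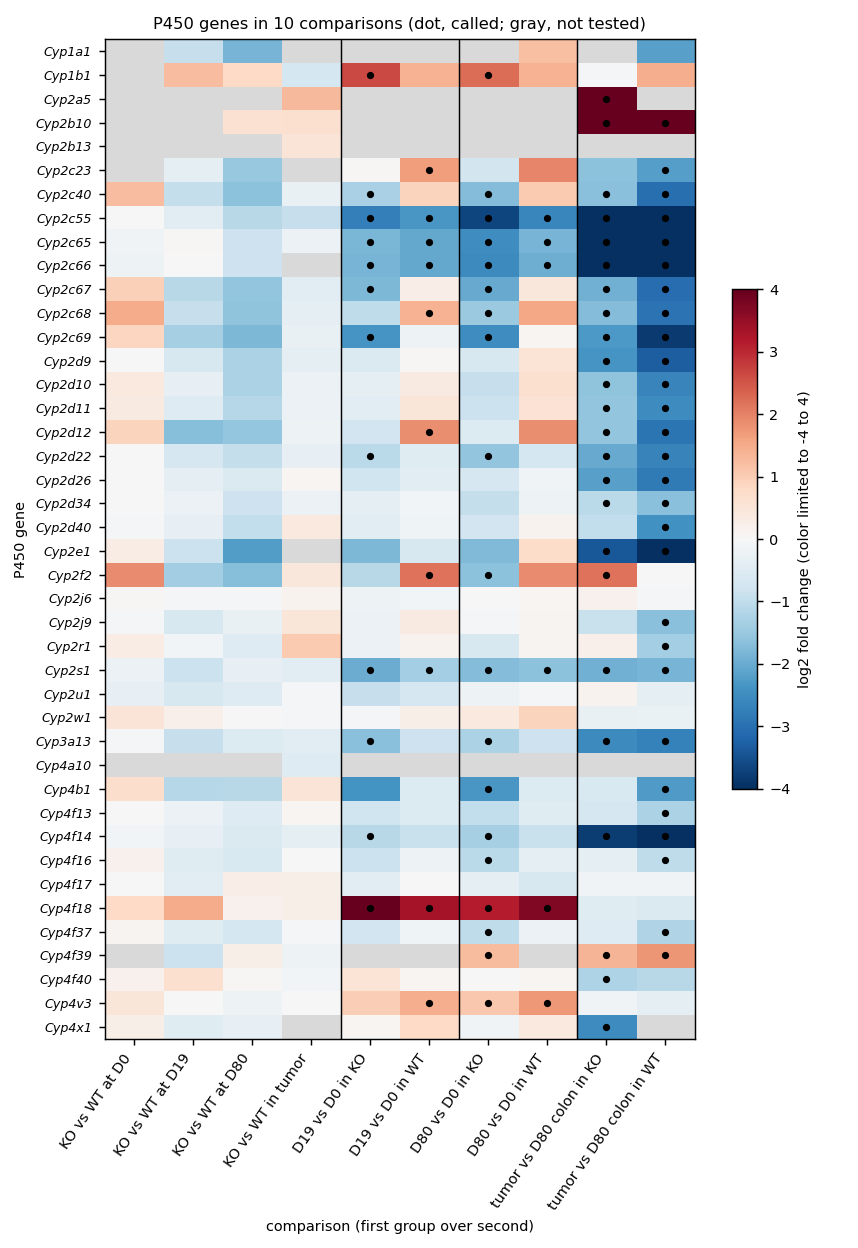
Heat map of the log2 fold change (color, limited to -4 to 4) of the 42 P450 genes tested in at least 1 of the 10 comparisons shown (columns, first group over second). Rows are genes, black dots mark called genes and gray cells were not tested; the tumor columns hold 20 (KO) and 26 (WT) genes that fell, while the 4 columns of KO against WT hold no dot.

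The median log2 fold change of the genes tested moved in step with these counts. It was -0.77 in KO and -0.05 in WT colon at D19, -0.92 in KO and 0.11 in WT colon at D80, and -1.24 in KO and -2.19 in WT tumors against D80 colon. Over all genes tested the median stayed between -0.06 and 0.05 in these 6 comparisons. The members that passed the count filter are not all members, and genes seen only in a group where they are high pass it through that group. Since these are bulk samples, fewer cells of a type and less RNA per cell cannot be told apart. Markers of surface colonocytes moved along with the falls: 3 of 10 fell and 1 rose in KO and 2 fell and 1 rose in WT colon at D19, 5 fell in KO and 1 in WT colon at D80, and 9 fell in KO and 8 in WT tumors. Their summed level was 4385 to 5414 CPM in KO and 4999 to 6481 CPM in WT colon at D19. It was 3089 to 5103 CPM in KO and 4504 to 9386 CPM in WT colon at D80, and 439 to 988 CPM in KO and 902 to 1906 CPM in WT tumors. Smooth muscle markers fell as well: of 8 tested, 2 fell in KO and 5 in WT colon at D19, 8 in KO and 3 in WT colon at D80, and 8 in tumors of each genotype. Their sum was 147 to 239 CPM in KO and 151 to 699 CPM in WT tumors, against 2132 to 3323 CPM in KO and 3431 to 4768 CPM in WT D80 colon. The sum of 10 small-intestinal enterocyte markers was 6.91 to 24.6 CPM in KO and 6.64 to 30.4 CPM in WT tumors, against 178 to 375 CPM in KO and 249 to 466 CPM in WT D80 colon, and 4 of 6 tested fell in KO and 3 of 5 in WT tumors. The part of these shifts in the P450 counts was not tested.

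*Cyp2c55*, an enzyme of the mouse colon that oxidizes arachidonic acid, was lower at D19 and D80 than at D0 and lower again in tumors, in both genotypes. In KO mice it stood at 1124, 889.9, 3349.7 and 1740.0 CPM at D0, 437, 207, 282 and 140.2 at D19, 48.5, 323, 90.4 and 103 at D80 and 1.65, 2.27 and 1.49 in tumors. In WT mice it stood at 1859, 2446, 1586 and 1326 CPM at D0, 440.0, 446, 275 and 287 at D19, 196, 161, 304 and 525 at D80 and 3.89, 1.67, 1.22, 8.11 and 2.44 in tumors. D19 and D80 lay below D0, and tumors below D80 colon, without overlap in either genotype, while D19 and D80 overlapped. Against D0, *Cyp2c55* fell 6.69-fold in KO colon at D19 (log2 fold change -2.74, SE 0.503, adjusted p = 0.00516) and 5.04-fold in WT colon (log2 fold change -2.33, SE 0.24, adjusted p = 0.00011). At D80 the fall was 12.7-fold in KO (log2 fold change -3.66, SE 0.65, adjusted p = 0.00104) and 6.15-fold in WT (log2 fold change -2.62, SE 0.42, adjusted p = 0.00489). Tumors were a further 80.3-fold below D80 colon in KO (log2 fold change -6.33, SE 0.77, adjusted p = 0.000821) and 93.03-fold in WT mice (log2 fold change -6.54, SE 0.67, adjusted p = 0.000298). KO mouse 535 had the highest D80 level of its group, and without it the log2 fold change was -4.50 at D80 against D0 and -5.49 in tumors against D80. WT tumor 555 was the highest tumor, and without it the WT value against D80 was -7.14.

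*Cyp2c65* and *Cyp2c66*, its neighbors on the plus strand, followed the same course at lower levels. *Cyp2c65* stood at 109, 67.1, 293 and 156 CPM at D0, 49.6, 43.03, 61.8 and 21.3 at D19, 12.97, 44.2, 22.6 and 32.8 at D80 and 0.784, 1.28 and 0.408 in tumors in KO mice. In WT mice *Cyp2c65* stood at 166, 247, 155 and 124 CPM at D0, 34.4, 52.99, 34.1 and 48.4 at D19, 43.9, 45.2, 40.2 and 63.8 at D80 and 0.476, 1.12, 0.856, 1.55 and 0.884 in tumors. D19 and D80 overlapped and lay below D0 in both genotypes, and tumors lay below D80 colon. *Cyp2c65* fell at D19 in KO (log2 fold change -1.84, SE 0.46, adjusted p = 0.0266) and in WT colon (log2 fold change -2.04, SE 0.23, adjusted p = 0.000153), at D80 in KO (log2 fold change -2.49, SE 0.48, adjusted p = 0.00182) and in WT colon (log2 fold change -1.86, SE 0.26, adjusted p = 0.00285), and in KO (log2 fold change -5.099, SE 0.55, adjusted p = 0.000522) and WT tumors (log2 fold change -5.74, SE 0.35, adjusted p = 4.48e-05). *Cyp2c66* stood at 15.6, 10.7, 43.5 and 23.97 CPM at D0, 6.95, 6.08, 10.03 and 2.91 at D19, 2.22, 6.23, 3.06 and 4.75 at D80 and 0.0811, 0.13 and 0.149 in tumors in KO mice. In WT mice *Cyp2c66* stood at 24.3, 39.1, 24.3 and 20.99 CPM at D0, 4.71, 8.71, 5.45 and 7.69 at D19, 6.45, 6.38, 6.06 and 9.41 at D80 and 0.0501, 0.212, 0.11, 0.247 and 0.208 in tumors. Its changes were close to those of *Cyp2c65*, with which it shares exon stretches: log2 fold change -1.87, SE 0.48, adjusted p = 0.0281 in KO and log2 fold change -2.04, SE 0.24, adjusted p = 0.000197 in WT colon at D19, and log2 fold change -2.54, SE 0.46, adjusted p = 0.00118 in KO and log2 fold change -1.96, SE 0.26, adjusted p = 0.00215 in WT colon at D80. It fell in KO (log2 fold change -5.102, SE 0.52, adjusted p = 0.000425) and WT tumors (log2 fold change -5.51, SE 0.397, adjusted p = 8.08e-05). KO tumors had 3, 5 and 4 counts and WT tumors 2, 7, 4, 10 and 8, so *Cyp2c66* passed the count filter through D80 colon. Its tumor calls alone are thus no support for a fall. The D19 calls of both genes in KO colon did not hold without D19 mouse 803, 804 or 813 or D0 mouse 872 or 915, where the adjusted p lay between 0.0598 and 0.0772 for *Cyp2c65* and between 0.0641 and 0.0837 for *Cyp2c66*.

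The 4 genes of the minus-strand block stood higher in all KO than in all WT libraries at D0, all fell in KO colon at D80, and fell in tumors of both genotypes, while in WT colon the only call was a rise of *Cyp2c68* at D19. *Cyp2c68*, its most abundant gene, stood at 54.8, 54.2, 35.6 and 79.1 CPM at D0, 32.1, 17.4, 44.4 and 17.4 at D19, 12.7, 38.6, 12.5 and 17.5 at D80 and 8.81, 6.62 and 3.53 in tumors in KO mice. In WT mice *Cyp2c68* stood at 17.1, 28.4, 14.8 and 20.6 CPM at D0, 65.8, 65.9, 42.5 and 38.7 at D19, 35.5, 14.6, 61.8 and 126 at D80 and 9.001, 2.91, 2.099, 20.02 and 7.93 in tumors. At D0 all 4 KO libraries lay above all 4 WT libraries, whereas at D19 and D80 the genotypes overlapped with the higher mean in WT. Against D0, *Cyp2c68* rose in WT colon at D19 (log2 fold change 1.38, SE 0.24, adjusted p = 0.00126) and fell in KO colon at D80 (log2 fold change -1.48, SE 0.39, adjusted p = 0.00903, groups overlapping). It had a log2 fold change of -1.03 (SE 0.36) in KO colon at D19 and 1.54 (SE 0.57) in WT colon at D80, neither of them called. Tumors lay below D80 colon in KO (log2 fold change -1.73, SE 0.48, adjusted p = 0.0197) without overlap, and *Cyp2c68* also fell in WT tumors (log2 fold change -2.95, SE 0.75, adjusted p = 0.0149), where tumor 555 lay above D80 mouse 542. WT mouse 581 and WT tumor 555 were high in their groups, and the WT tumor value was -2.27 without the first and -3.57 without the second.

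*Cyp2c40*, which makes hydroxylated products of arachidonic acid, stood at 23.2, 22.99, 16.99 and 30.5 CPM at D0, 11.1, 5.74, 15.7 and 6.097 at D19, 4.36, 13.7, 4.82 and 5.48 at D80 and 3.0, 2.55 and 1.26 in tumors in KO mice. In WT mice *Cyp2c40* stood at 10.5, 12.1, 8.28 and 9.44 CPM at D0, 23.6, 24.4, 14.3 and 13.2 at D19, 12.5, 5.31, 22.2 and 45.3 at D80 and 2.51, 0.97, 0.69, 6.81 and 3.33 in tumors. KO libraries were all above WT libraries at D0 and were mixed with or below them afterwards. In KO colon it fell at D19 (log2 fold change -1.3, SE 0.35, adjusted p = 0.0345) and at D80 (log2 fold change -1.74, SE 0.37, adjusted p = 0.00296). The D19 call did not hold without any of D19 mice 803, 804 and 813 or D0 mice 852, 853 and 915 (adjusted p 0.0652 to 0.103). In WT colon its log2 fold change was 0.89 (SE 0.22) at D19 and 1.06 (SE 0.55) at D80, with no call. Tumors fell in KO (log2 fold change -1.68, SE 0.48, adjusted p = 0.0233) and WT mice (log2 fold change -3.02, SE 0.75, adjusted p = 0.0138, groups overlapping), the KO call not without tumor 544 (-1.39, adjusted p = 0.0553). Without D80 mouse 581 the WT value was -2.34, and without tumor 555 it was -3.63.

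*Cyp2c67* and *Cyp2c69* shared this pattern. *Cyp2c67* stood at 8.705, 10.4, 8.48 and 12.5 CPM at D0, 3.35, 2.06, 4.38 and 1.85 at D19, 1.07, 4.92, 1.79 and 2.21 at D80 and 1.0, 0.755 and 0.26 in tumors in KO mice. In WT mice *Cyp2c67* stood at 6.36, 5.297, 4.705 and 4.42 CPM at D0, 8.44, 8.097, 4.48 and 4.23 at D19, 3.43, 1.88, 7.83 and 16.2 at D80 and 0.802, 0.455, 0.138, 2.24 and 1.09 in tumors. It fell in KO colon at D19 (log2 fold change -1.804, SE 0.31, adjusted p = 0.00336) and D80 (log2 fold change -2.01, SE 0.401, adjusted p = 0.00212), and its WT values were 0.26 (SE 0.25) and 0.47 (SE 0.57). In tumors it fell in KO (log2 fold change -1.92, SE 0.603, adjusted p = 0.032) and in WT mice (log2 fold change -3.06, SE 0.78, adjusted p = 0.015), where the groups overlapped. The KO tumor call did not hold without tumor 543 or 544 or D80 mouse 535 or 544 (adjusted p 0.0562 to 0.0697). Without D80 mouse 535 the KO value was -2.61 at D80 against D0 and -1.32 in tumors, and without D80 mouse 581 and without tumor 555 the WT tumor value was -2.32 and -3.67.

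*Cyp2c69* stood at 18.2, 24.9, 24.1 and 27.7 CPM at D0, 5.35, 2.88, 7.33 and 2.997 at D19, 1.81, 8.85, 3.096 and 3.16 at D80 and 1.297, 0.99 and 0.334 in tumors in KO mice. In WT mice *Cyp2c69* stood at 15.5, 14.5, 11.8 and 11.04 CPM at D0, 16.3, 17.3, 6.72 and 6.48 at D19, 6.03, 3.16, 14.4 and 33.4 at D80 and 0.677, 0.485, 0.249, 2.74 and 1.3 in tumors. *Cyp2c69* fell in KO colon at D19 (log2 fold change -2.37, SE 0.32, adjusted p = 0.000978) and D80 (log2 fold change -2.49, SE 0.42, adjusted p = 0.000848), with no overlap with D0, while WT colon had -0.196 (SE 0.32) and 0.09 (SE 0.61). Tumors fell in KO (log2 fold change -2.3, SE 0.64, adjusted p = 0.0199) and WT mice (log2 fold change -3.82, SE 0.82, adjusted p = 0.00691). Without D80 mouse 535 the KO values were -3.18 at D80 and -1.62 in tumors, and the WT tumor value was -2.96 without D80 mouse 581 and -4.51 without tumor 555. *Cyp2c23*, an arachidonic acid epoxygenase gene further along chromosome 19 (44005022-44029208, minus strand), was scarce: it stood at 0.51, 0.218, 0.177 and 1.02 CPM at D0, 0.442, 0.411, 0.842 and 0.411 at D19, 0.302, 0.486, 0.0957 and 0.276 at D80 and 0.162, 0.0781 and 0.0371 in tumors in KO mice. In WT mice *Cyp2c23* stood at 0.0883, 0.255, 0.226 and 0.251 CPM at D0, 0.943, 0.687, 0.473 and 0.655 at D19, 0.541, 0.417, 0.593 and 1.95 at D80 and 0.1, 0.0606, 0.166, 0.395 and 0.234 in tumors. It rose in WT colon at D19 (log2 fold change 1.67, SE 0.36, adjusted p = 0.00419) and fell in WT tumors (log2 fold change -2.21, SE 0.61, adjusted p = 0.0217). WT colon at D0 had 2, 5, 5 and 8 counts, so *Cyp2c23* passed the count filter through D19. The D19 call alone is thus no support for a rise. The tumor call did not hold without WT tumor 534, 541 or 542 (adjusted p 0.0507 to 0.055), and without D80 mouse 581 the value was -1.52. WT tumors had 4, 2, 6, 16 and 9 counts, so *Cyp2c23* passed the count filter there through D80 colon. That call alone is thus no support for a fall.

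**Figure D2:**
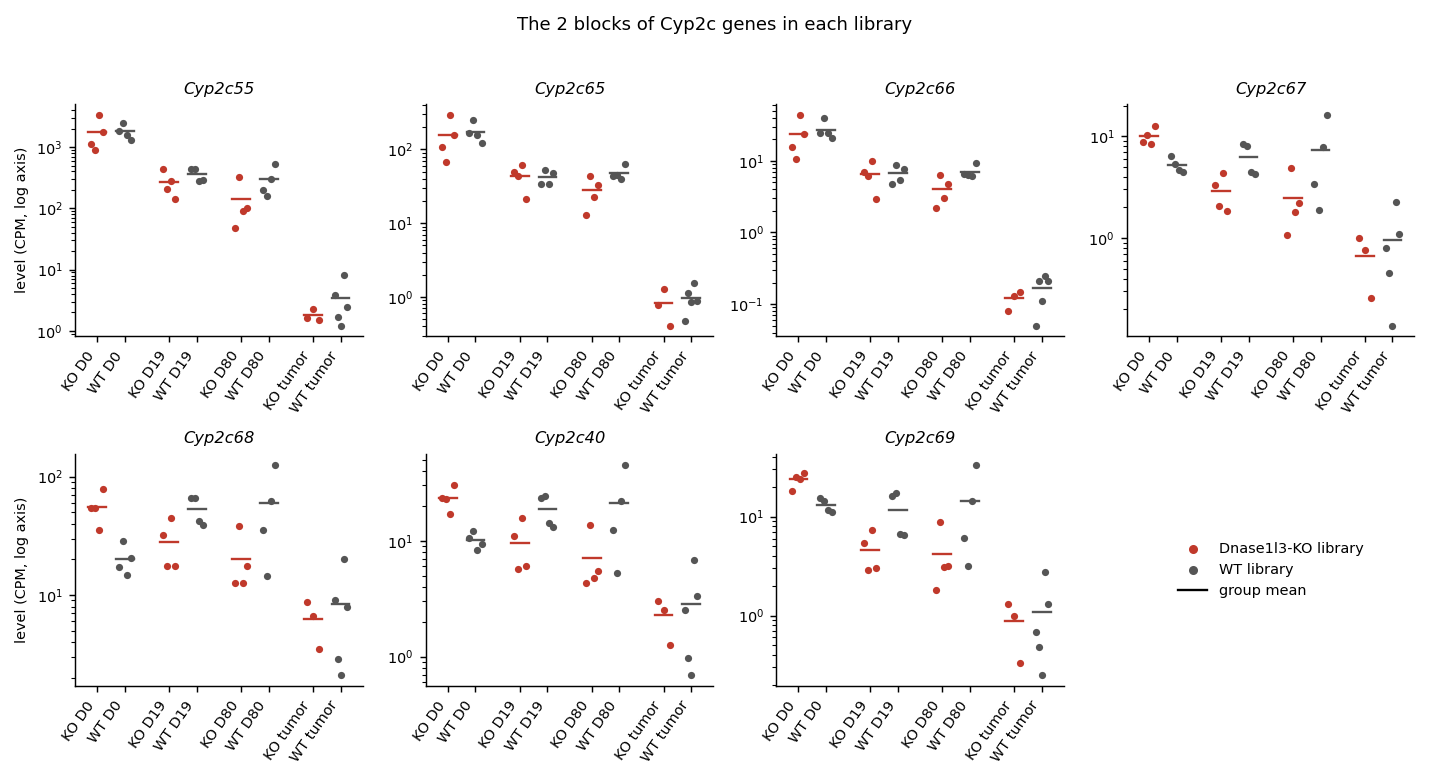
Level of each Cyp2c gene of the plus-strand block (Cyp2c55, Cyp2c65, Cyp2c66) and the minus-strand block (Cyp2c67, Cyp2c68, Cyp2c40, Cyp2c69) in CPM on a log axis, by group. Points are libraries, red for KO and gray for WT, and bars are group means; at D0 the 4 KO libraries lie above the 4 WT libraries in each gene of the minus-strand block, and both genotypes overlap in the plus-strand block.

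The comparison of KO with WT colon asked whether P450 genes differed between genotypes at a given stage, and 0 of 34 were called at D0, as were 0% of all 18175 genes tested. Yet 6 P450 genes were higher in all 4 KO than in all 4 WT libraries at D0, against 1.77% of all genes, and none was lower in all (1.64% of all genes). They were the 4 genes of the minus-strand block, *Cyp2f2* and *Cyp4v3*. The level was 2.34-fold higher for *Cyp2c40* (log2 fold change 1.23, SE 0.18, adjusted p = 0.118), 2.79-fold for *Cyp2c68* (log2 fold change 1.48, SE 0.25, adjusted p = 0.194), 1.94-fold for *Cyp2c67* (log2 fold change 0.96, SE 0.18, adjusted p = 0.247) and 1.81-fold for *Cyp2c69* (log2 fold change 0.86, SE 0.16, adjusted p = 0.24). The plus-strand block showed no such gap, with log2 fold changes of -0.02 for *Cyp2c55*, -0.15 for *Cyp2c65* and -0.21 for *Cyp2c66*. The lowest adjusted p over all genes at D0 was 0.116, and 7 of the 34 P450 genes had a nominal p under 0.05, against 9.63% of all genes. By DESeq2 3 P450 genes were called at D0, *Cyp2c40* (adjusted p = 2.9e-06), *Cyp2c68* (1.14e-05) and *Cyp2f2* (0.00105), against 0.267% of all genes. With the number before the dash in the titles as a block 3 were called as well, *Cyp2c40* (0.00727), *Cyp2c68* (0.00295) and *Cyp2d12* (0.00299), against 0.391% of all genes. Without KO mouse 872 edgeR called *Cyp2c40* (1.36, adjusted p = 0.00422) and *Cyp2c68* (1.65, adjusted p = 0.00787), against 0.254% of all genes.

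Within a title number the order was the same for *Cyp2c68*. KO mice 852 and 853 of number 123 had 54.8 and 54.2 CPM, against 17.1 CPM in WT mouse 851, and KO mouse 915 of number 134 had 79.1 CPM, against 28.4 and 14.8 CPM in WT mice 918 and 920. Of the genes that mark the distal colon, *Hoxb13* stood at 140.3, 154, 4.03 and 129 CPM in KO colon, against 13.3, 7.44, 23.2 and 55.3 CPM in WT colon. The summed level of 7 distal Hox genes was 44.5 to 204 CPM in KO and 46.3 to 98.4 CPM in WT colon, and none of the 3 tested was called between genotypes or had groups without overlap (lowest adjusted p = 0.468 by edgeR). KO mouse 872, with *Hoxb13* at 4.03 CPM, had 35.6 CPM of *Cyp2c68*, the lowest KO level, where WT libraries had at most 28.4 CPM. All other KO libraries had *Hoxb13* above each WT library. Against D0, 5 of 6 distal Hox genes tested rose in WT colon at D19 and 2 of 3 at D80, and none of 6 was called in KO colon at either stage. The summed level of 8 hepatocyte markers at D0 was 24.2, 23.3, 8.74 and 23.004 CPM in KO colon, against 10.6, 8.35, 7.78 and 7.84 CPM in WT colon, so that KO mouse 872 lay among the WT libraries. Of these markers 4 were tested, all with the higher mean in KO colon, 2 at a nominal p under 0.05 and none called. Their sum was 13.4 to 30.7 CPM in KO and 16.1 to 46.9 CPM in WT colon at D19, and 19.7 to 28.6 CPM in KO and 19.8 to 57.4 CPM in WT colon at D80, where WT mouse 581 was highest. The part of distal Hox and hepatocyte marker levels in the values of the minus-strand block and *Cyp2f2* was not tested.

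At D19 and D80 most P450 genes had a lower mean level in KO colon, again with no call. Of 38 tested at D19 and 39 at D80, 32 each had a negative log2 fold change, with medians of -0.48 and -0.71 (all genes 0.01 at both), and 12 each had a nominal p under 0.05, against 11.3% and 5.55% of all genes. The lowest adjusted p of a P450 gene was 0.309 at D19 and 0.681 at D80. This edgeR test called 0% of all 19545 genes tested at D19 and 0% of all 18899 at D80, so the lack of calls was not particular to P450 genes. Groups did not overlap for *Cyp4f18* (KO higher, 4.36% of all genes) and for *Cyp2f2*, *Cyp1a1* and *Cyp4x1* (KO lower, 4.71% of all genes) at D19, and for *Cyp2e1*, *Cyp1a1* and *Cyp4b1* (KO lower, 1.92% of all genes) at D80. In the minus-strand block the log2 fold changes were -0.92 to -1.32 at D19 and -1.59 to -1.795 at D80. WT mice 685 and 686 at D19 had title number 97, which no KO mouse had. The summed level of all 75 P450 genes was 1443.5 and 1530 CPM in them, against 938 and 1110 CPM in WT mice 805 and 812. In KO colon at D19 the sum was 736 to 1251 CPM. Genotype and title number can thus not be fully told apart at D19. With title number as a block 0% of all 19545 genes were called there. By DESeq2 *Cyp4f18* (adjusted p = 0.0104) and *Cyp2d12* (0.0249) were called at D19 (1.5% of all genes) and *Cyp2e1* (0.021) at D80 (0.169% of all genes), and in a single fit of all 32 libraries *Cyp4f18* was called at D19 (0.0303, with 0.83% of all genes). In tumors 0 of 37 P450 genes were called, against 0.264% of all genes higher and 0.0422% lower in KO, with a median of -0.11 over the P450 genes and -0.02 over all genes. Only *Cyp2b10* had a nominal p under 0.05 there (log2 fold change 0.64, SE 0.24, adjusted p = 0.699 by edgeR), against 6.61% of all genes.

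Whether the change from D0 differed between genotypes was tested as an interaction, and 0 of 39 P450 genes were called at D19 (0.0298% of all genes), 0 of 39 at D80 (0% of all genes) and 0 of 42 between D80 colon and tumors (0% of all genes). At a nominal p under 0.05 there were 7 at D19, 12 at D80 and 2 in tumors, against 8.15%, 7.84% and 11.7% of all genes. The D19 values of the minus-strand block were -2.399 (SE 0.46) for *Cyp2c68* (adjusted p = 0.106), -2.18 (SE 0.44) for *Cyp2c40* (0.106), -2.06 (SE 0.41) for *Cyp2c67* (0.106) and -2.18 (SE 0.49) for *Cyp2c69* (0.147). The change in KO was thus lower by these amounts than the change in WT on the log2 scale, short of the threshold in edgeR's test. The WT change at D19 includes mice 685 and 686, whose title number no KO mouse had. Without D19 KO mouse 811 these 4 and *Cyp2f2* were called (adjusted p 0.0239 for *Cyp2c40*, 0.0252 for *Cyp2c68*, 0.0274 for *Cyp2c67*, 0.0376 for *Cyp2f2* and 0.0457 for *Cyp2c69*), without D0 KO mouse 872 *Cyp2c68* (0.0317) and without D19 WT mouse 805 *Cyp2c67* (0.0486), where 0.161, 0.215 and 0.2% of all genes were called. DESeq2 called 6, the same 5 and *Cyp2d12* (adjusted p 0.00117 for *Cyp2c68* to 0.0178 for *Cyp2d12*), against 0.85% of all genes. For the plus-strand block the D19 values were -0.41 (SE 0.56) for *Cyp2c55*, 0.204 (SE 0.54) for *Cyp2c65* and 0.18 (SE 0.56) for *Cyp2c66*. At D80 the interaction values of the minus-strand block ranged from -2.46 for *Cyp2c67* to -3.005 for *Cyp2c68* (adjusted p = 0.56 for each), and *Cyp2c68* was -2.35 without WT mouse 581 and was called by DESeq2 (0.0456), as were 0.084% of all genes. Those of the plus-strand block were negative as well, at -1.03 (SE 0.77) for *Cyp2c55*, -0.62 (SE 0.58) for *Cyp2c65* and -0.57 (SE 0.55) for *Cyp2c66*, with no call.

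*Cyp2f2*, an enzyme known from airway epithelium, took a course like that of the minus-strand block in colon but not in tumors. In KO mice *Cyp2f2* stood at 10.1, 8.03, 4.74 and 10.9 CPM at D0, 4.88, 1.75, 7.68 and 1.81 at D19, 2.69, 4.898, 2.17 and 1.19 at D80 and 12.9, 6.09 and 19.05 in tumors. In WT mice it stood at 2.295, 3.67, 0.633 and 2.67 CPM at D0, 14.1, 11.98, 8.04 and 8.12 at D19, 4.596, 1.43, 9.24 and 19.8 at D80 and 13.2, 14.5, 18.3, 1.68 and 0.494 in tumors. KO was above WT in all libraries at D0 (log2 fold change 1.88, SE 0.41, adjusted p = 0.361) and below WT in all at D19 (log2 fold change -1.38, SE 0.49, adjusted p = 0.4). It rose in WT colon at D19 (log2 fold change 2.17, SE 0.41, adjusted p = 0.00199) and fell in KO colon at D80 (log2 fold change -1.64, SE 0.41, adjusted p = 0.00721, groups overlapping). Tumors lay above D80 colon in KO mice (log2 fold change 2.18, SE 0.51, adjusted p = 0.0107), while WT tumors spread from 0.494 to 18.3 CPM (0.01 (SE 0.96), not called). Antisense gene Gm15883 overlaps *Cyp2f2*, and whether reads were counted by strand is not given in the sources used here.

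The Cyp2d genes, which in the mouse hydroxylate drugs and steroids, had few calls in colon after AOM/DSS and fell in tumors. All 8 were tested, and at D19 1 fell in KO (*Cyp2d22*) and 1 rose in WT colon (*Cyp2d12*), while at D80 only *Cyp2d22* fell in KO and none changed in WT colon. *Cyp2d22*, the mouse gene closest in function to human CYP2D6, stood at 25.01, 16.5, 32.1 and 22.5 CPM at D0, 12.1, 8.36, 13.6 and 11.3 at D19, 8.77, 9.27, 7.404 and 7.41 at D80 and 2.97, 1.82 and 1.37 in tumors in KO mice. In WT mice *Cyp2d22* stood at 20.2, 23.1, 28.8 and 26.6 CPM at D0, 22.7, 20.9, 12.95 and 15.9 at D19, 8.88, 7.09, 16.3 and 28.9 at D80 and 1.504, 2.27, 2.57, 4.54 and 2.21 in tumors. It fell in KO colon at D19 (log2 fold change -1.09, SE 0.25, adjusted p = 0.0157) and D80 (log2 fold change -1.57, SE 0.19, adjusted p = 0.000123) and had -0.47 (SE 0.18) and -0.71 (SE 0.41) in WT colon. The D19 call in KO did not hold without D19 mouse 804 or D0 mouse 872 (adjusted p 0.0551 and 0.0541). In tumors 7 Cyp2d genes fell in KO and all 8 in WT mice, where 16.4% and 13.5% of all genes fell, with medians of -1.59 and -2.65. The groups of *Cyp2d12* and *Cyp2d34* overlapped in WT mice. *Cyp2d9*, known as a testosterone hydroxylase of male liver, stood at 6.41, 5.42 and 1.89 CPM in KO tumors, against 32.1, 20.8, 24.6 and 15.2 CPM in KO D80 colon (log2 fold change -2.37, SE 0.41, adjusted p = 0.00305). In WT mice *Cyp2d9* stood at 6.22, 2.39, 5.52, 12.7 and 2.704 CPM in tumors, against 32.05, 19.5, 41.4 and 122 CPM in D80 colon (log2 fold change -3.31, SE 0.65, adjusted p = 0.0043). *Cyp2d26* stood at 2.14, 2.32 and 2.38 CPM in KO tumors, against 7.29, 12.2, 8.87 and 11.8 CPM in KO D80 colon (log2 fold change -2.17, SE 0.24, adjusted p = 0.000549), and 1.88, 1.61, 1.91, 4.09 and 1.51 CPM in WT tumors, against 12.9, 11.1, 13.6 and 20.1 CPM in WT D80 colon (log2 fold change -2.83, SE 0.34, adjusted p = 0.000463). WT mouse 581 was the highest D80 library for most of them, and without it the WT tumor value was -2.50 for *Cyp2d9*, -2.07 for *Cyp2d12*, -2.01 for *Cyp2d10* and -1.88 for *Cyp2d11*. The KO tumor call of *Cyp2d34* did not hold without tumor 544, since the log2 fold change was then -0.82.

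*Cyp2s1*, an epithelial P450 of gut and airway, and *Cyp3a13*, the intestinal Cyp3a enzyme of the mouse, fell at D19, at D80 and in tumors of KO mice. *Cyp2s1* stood at 103, 90.01, 165 and 142 CPM at D0, 37.03, 29.5, 20.3 and 38.8 at D19, 27.1, 58.5, 32.8 and 34.1 at D80 and 12.7, 13.3 and 5.05 in tumors in KO mice. In WT mice *Cyp2s1* stood at 127, 184, 142 and 136 CPM at D0, 74.5, 75.8, 37.1 and 42.9 at D19, 54.8, 37.1, 65.3 and 31.2 at D80 and 11.5, 9.15, 13.6, 25.97 and 9.52 in tumors. D0 lay above all later stages in both genotypes, and D80 colon above tumors. *Cyp2s1* fell at D19 in KO (log2 fold change -1.995, SE 0.29, adjusted p = 0.00134) and WT colon (log2 fold change -1.37, SE 0.24, adjusted p = 0.00137), at D80 in KO (log2 fold change -1.74, SE 0.27, adjusted p = 0.0005) and WT colon (log2 fold change -1.65, SE 0.27, adjusted p = 0.00549), and in KO (log2 fold change -1.92, SE 0.38, adjusted p = 0.00564) and WT tumors (log2 fold change -1.87, SE 0.35, adjusted p = 0.00371).

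*Cyp3a13* stood at 109, 111, 203 and 109.6 CPM at D0, 40.3, 31.1, 59.3 and 37.4 at D19, 42.5, 81.5, 48.7 and 49.4 at D80 and 14.7, 9.98 and 4.83 in tumors in KO mice. In WT mice *Cyp3a13* stood at 130.5, 169, 139 and 118 CPM at D0, 113, 100.4, 39.004 and 66.6 at D19, 69.1, 54.6, 84.9 and 108 at D80 and 12.4, 6.12, 10.96, 27.4 and 9.204 in tumors. Colon at D19 and D80 lay below D0 without overlap in both genotypes, and tumors of both genotypes lay below D80 colon. It fell in KO colon at D19 (log2 fold change -1.67, SE 0.28, adjusted p = 0.00314) and D80 (log2 fold change -1.28, SE 0.26, adjusted p = 0.00231), and WT colon had -0.82 (SE 0.28) and -0.83 (SE 0.24), with no call. In tumors it fell in KO (log2 fold change -2.54, SE 0.39, adjusted p = 0.00193) and WT mice (log2 fold change -2.703, SE 0.42, adjusted p = 0.0014). *Cyp3a11*, the main Cyp3a enzyme of mouse liver, had 13 counts over the KO and 103 over the WT libraries at D0 and at most 3 in any later group, too few to test.

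*Cyp2e1*, which oxidizes AOM and ethanol, was a low gene here. It stood at 16.6, 3.41, 0.118 and 2.36 CPM at D0, 1.12, 1.77, 2.81 and 0.985 at D19, 0.411, 2.24, 1.91 and 2.27 at D80 and 0.108, 0.286 and 0.0743 in tumors in KO mice. In WT mice *Cyp2e1* stood at 6.09, 2.903, 1.22 and 8.28 CPM at D0, 2.97, 6.203, 1.22 and 1.64 at D19, 13.3, 7.27, 6.15 and 4.56 at D80 and 0.0501, 0.0909, 0.0552, 0.148 and 0.182 in tumors. At D80 all KO libraries were below all WT libraries (log2 fold change -2.22, SE 0.53, adjusted p = 0.681), and the tumors of both genotypes were far below D80 colon. *Cyp2e1* fell in KO (log2 fold change -3.404, SE 0.71, adjusted p = 0.00651) and in WT tumors (log2 fold change -6.28, SE 0.47, adjusted p = 8.97e-05), and the KO value was -4.16 without tumor 543. KO tumors had 4, 11 and 2 counts and WT tumors 2, 3, 2, 6 and 7, so *Cyp2e1* passed the count filter through D80 colon. The tumor calls alone are thus no support for a fall. Against D0 *Cyp2e1* was not called, with -1.801 (SE 0.995) in KO and -0.65 (SE 0.61) in WT colon at D19, and -1.77 (SE 0.99) in KO and 0.75 (SE 0.56) in WT colon at D80. KO mouse 852 at D0 carried much of the KO values, which without it were -0.26 at D19 and -0.25 at D80, while without D0 mouse 872 *Cyp2e1* was called at D80 (-2.17, adjusted p = 0.0331). WT D19 mouse 686 moved the WT value to -1.31 when left out. Adipocyte markers, of a cell type that also makes *Cyp2e1*, were low in tumors as well: *Adipoq* ranged from 0.247 to 2.22 CPM in KO and 2.82 to 7.12 CPM in WT colon at D80, and was at 0 in all 3 KO tumors and at most 0.0493 CPM in WT tumors. The summed level of 10 adipocyte markers was 65.6 to 173 CPM in KO and 157 to 180.5 CPM in WT colon at D80, and 10.1 to 16.2 CPM in KO and 13.2 to 25.4 CPM in WT tumors, where 8 of 9 tested fell in each genotype. Single libraries went both ways. In KO colon at D0 mouse 852 was highest in both measures, with a sum of 267 CPM. Mouse 872 had a sum of 141 CPM with 0.118 CPM of *Cyp2e1*, and mouse 853 had 121 CPM with 3.41 CPM. At D80 KO mice 535 and 544 had sums of 173 and 96.9 CPM with 2.24 and 2.27 CPM of *Cyp2e1*. The part of adipocytes in the *Cyp2e1* values was not tested.

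**Figure D3:**
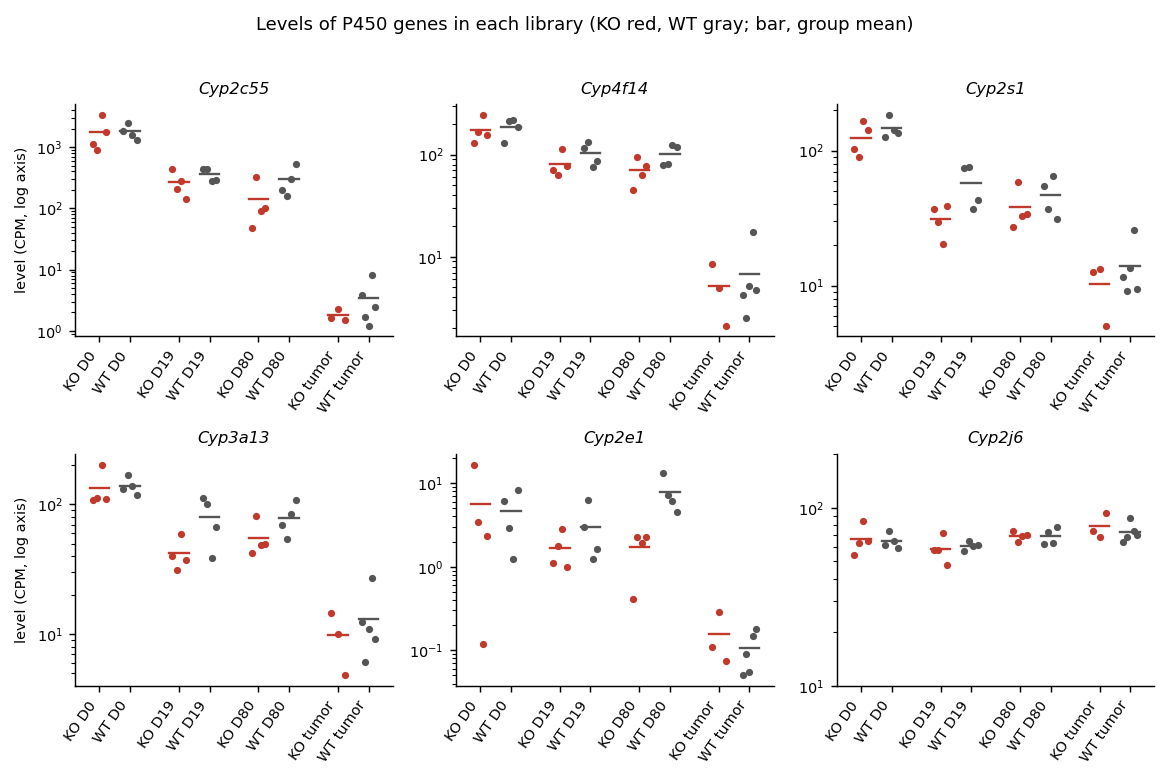
Level of Cyp2c55, Cyp4f14, Cyp2s1, Cyp3a13, Cyp2e1 and Cyp2j6 in CPM on a log axis, by group. Points are libraries, red for KO and gray for WT, and bars are group means; the first 4 genes step down to tumors, Cyp2e1 lies between 0.0501 and 0.286 CPM in all tumors, and Cyp2j6 stays between 47.6 and 93.6 CPM in all libraries.

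Among the Cyp4 genes, which hydroxylate fatty acids and leukotrienes, some fell and some rose. *Cyp4f14*, which in the mouse hydroxylates leukotriene B4, stood at 129, 167, 244 and 157 CPM at D0, 70.6, 63.7, 115 and 78.05 at D19, 44.7, 94.8, 62.7 and 77.6 at D80 and 8.43, 4.92 and 2.12 in tumors in KO mice. In WT mice *Cyp4f14* stood at 129, 213, 221 and 186 CPM at D0, 117, 132, 74.8 and 86.4 at D19, 78.7, 81.4, 126 and 119 at D80 and 4.19, 2.52, 5.14, 17.6 and 4.68 in tumors. It fell in KO colon at D19 (log2 fold change -1.102, SE 0.26, adjusted p = 0.0184) and D80 (log2 fold change -1.34, SE 0.25, adjusted p = 0.00139), while WT colon had -0.88 (SE 0.21) and -0.902 (SE 0.25). The D19 call did not hold without D19 mouse 803 or 804 or D0 mouse 872 (adjusted p 0.0587 to 0.0681). Tumors lay far below D80 colon in KO (log2 fold change -3.798, SE 0.48, adjusted p = 0.000915) and WT mice (log2 fold change -4.005, SE 0.55, adjusted p = 0.000786), and without tumor 555 the WT value was -4.73.

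*Cyp4f16* stood at 70.5, 86.3, 88.4 and 81.6 CPM at D0, 38.1, 37.6, 66.2 and 41.6 at D19, 36.5, 49.8, 33.9 and 36.4 at D80 and 33.5, 30.3 and 29.4 in tumors in KO mice. In WT mice *Cyp4f16* stood at 68.6, 73.4, 74.3 and 75.9 CPM at D0, 77.8, 89.9, 46.6 and 43.3 at D19, 43.6, 37.3, 54.5 and 97.1 at D80 and 28.4, 32.9, 29.3, 34.4 and 31.9 in tumors. It fell in KO colon at D80 (log2 fold change -1.09, SE 0.14, adjusted p = 0.00014) and in WT tumors (log2 fold change -1.01, SE 0.28, adjusted p = 0.0201). The tumor call rested on WT mouse 581, without which the log2 fold change was -0.64, and it did not hold without WT tumor 534 or 542 either (-0.97 and -0.99). *Cyp4f37* fell in KO colon at D80 (log2 fold change -1.0002, SE 0.14, adjusted p = 0.000306), at the edge of the fold threshold, so that leaving out D80 mouse 527, 543 or 544 or D0 mouse 872 ended the call (-0.99 to -0.93). *Cyp4b1*, known from lung, fell in KO colon at D80 (log2 fold change -2.32, SE 0.66, adjusted p = 0.0143), where KO mouse 872 had 24.8 CPM at D0 and the value without it was -1.19. In KO mice *Cyp4b1* stood at 3.44, 2.51, 24.8 and 6.45 CPM at D0, 2.04, 1.41, 2.701 and 0.985 at D19, 1.18, 1.92, 2.298 and 2.14 at D80 and 0.973, 1.85 and 0.928 in tumors. In WT mice it stood at 5.12, 9.32, 5.88 and 2.57 CPM at D0, 6.18, 4.31, 1.82 and 3.48 at D19, 2.496, 2.56, 4.301 and 6.57 at D80 and 0.852, 1.45, 1.795, 0.197 and 0.182 in tumors. It fell in WT tumors (log2 fold change -2.27, SE 0.66, adjusted p = 0.0266), a call that did not hold without tumor 534 or D80 mouse 555 (adjusted p 0.0624 and 0.0588). *Cyp4x1* fell in KO tumors, with 0.135, 0.104 and 0 CPM, against 0.274, 0.633, 0.447 and 0.613 CPM in KO D80 colon (log2 fold change -2.51, SE 0.62, adjusted p = 0.0134). KO tumors had 5, 4 and 0 counts, so *Cyp4x1* passed the count filter through D80 colon. Its call alone is thus no support for a fall. The fall of *Cyp4f40* in KO tumors (log2 fold change -1.24, SE 0.39, adjusted p = 0.0315) was lost without tumor 543 or any single D80 mouse (adjusted p 0.0531 to 0.069) and was -0.83 without tumor 544. In WT tumors *Cyp4f37* (log2 fold change -1.202, SE 0.31, adjusted p = 0.0159) and *Cyp4f13* (log2 fold change -1.28, SE 0.28, adjusted p = 0.00739) fell, at -0.81 and -0.99 without D80 mouse 581.

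*Cyp4f18*, a hydroxylase of leukotriene B4 known from mouse neutrophils, rose most after AOM/DSS. In KO mice *Cyp4f18* stood at 0.672, 0.908, 0.559 and 0.525 CPM at D0, 6.99, 7.901, 18.9 and 9.81 at D19, 5.98, 7.01, 4.72 and 6.13 at D80 and 3.49, 3.803 and 5.72 in tumors. In WT mice it stood at 0.265, 0.458, 0.226 and 0.565 CPM at D0, 3.44, 3.27, 4.91 and 4.09 at D19, 5.14, 4.14, 3.31 and 8.17 at D80 and 2.51, 5.55, 3.76, 4.56 and 2.6 in tumors. Every treated colon was above every D0 colon of its genotype, and at D19 all KO libraries were above all WT libraries. It rose 16.2-fold in KO (log2 fold change 4.02, SE 0.38, adjusted p = 0.00013) and 9.95-fold in WT colon (log2 fold change 3.32, SE 0.29, adjusted p = 6.29e-05) at D19. At D80 the rise over D0 was 8.84-fold in KO (log2 fold change 3.14, SE 0.23, adjusted p = 7.32e-06) and 13.2-fold in WT colon (log2 fold change 3.72, SE 0.42, adjusted p = 0.00122). WT colon at D0 had 6, 9, 5 and 18 counts, so *Cyp4f18* passed the count filter in WT mice through treated colon. The WT calls alone are thus no support for a rise. The KO to WT difference at D19 was not called by edgeR (log2 fold change 1.49, SE 0.34, adjusted p = 0.309). Neutrophil markers rose with it at D19: their summed level was 303 to 629 CPM in KO and 6.27 to 141 CPM in WT colon at D19, against 1.27 to 2.397 CPM in KO and 0.866 to 1.95 CPM in WT colon at D0, and 9 of 9 tested rose in KO and 4 of 5 in WT colon. KO mouse 811, highest in *Cyp4f18* at D19, had a sum of 425 CPM. At D80 the sum was 43.7 to 228 CPM in KO and 8.63 to 46.0 CPM in WT colon. The WT median was 34.6 CPM at D19 and 13.6 CPM at D80, while the rise of *Cyp4f18* over D0 was no smaller at D80. In tumors the neutrophil sum was 474 to 1007 CPM in KO and 51.6 to 1368 CPM in WT mice, while *Cyp4f18* was not called against D80 (-0.48 (SE 0.25) and -0.56 (SE 0.34)). Macrophage markers moved with it too, with a summed level of 367 to 651 CPM in KO and 252 to 319 CPM in WT colon at D19, against 41.5 to 68.03 CPM in KO and 42.5 to 83.5 CPM in WT colon at D0. Of 7 tested, 6 rose in each genotype at D19 and at D80. KO mouse 811 had the highest level of both *Cyp4f18* and the macrophage markers at D19. In tumors the macrophage sum was 138 to 225 CPM in KO and 112 to 249.7 CPM in WT mice, against 302 to 428 CPM in KO and 258 to 346 CPM in WT D80 colon, and 3 of 7 fell in KO and 1 in WT mice. The part of neutrophils and macrophages in these values was not tested.

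*Cyp4v3*, the mouse gene for a fatty acid omega hydroxylase, and *Cyp1b1*, an Ah receptor target that oxidizes estrogens and aromatic carcinogens, rose less. *Cyp4v3* stood at 4.94, 6.87, 4.24 and 4.8 CPM at D0, 8.88, 8.83, 16.1 and 8.29 at D19, 10.7, 12.8, 9.096 and 11.9 at D80 and 9.11, 9.79 and 11.9 in tumors in KO mice. In WT mice *Cyp4v3* stood at 4.19, 3.46, 3.75 and 3.48 CPM at D0, 11.3, 12.3, 8.42 and 9.64 at D19, 11.3, 8.65, 8.996 and 21.2 at D80 and 10.2, 10.4, 10.1, 10.7 and 11.2 in tumors. Treated colon was above D0 in both genotypes, and tumors overlapped with D80 colon. It rose in WT colon at D19 (log2 fold change 1.47, SE 0.15, adjusted p = 0.000118), and at D80 in KO (log2 fold change 1.07, SE 0.18, adjusted p = 0.000698) and WT colon (log2 fold change 1.73, SE 0.31, adjusted p = 0.00745). In KO colon at D19 its value was 0.9998 (SE 0.27, adjusted p = 0.0368). The D80 call in KO did not hold without D80 mouse 535 (0.99) or D0 mouse 872 (0.96), where the fold was just under 2.

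*Cyp1b1* stood at 0.242, 0.327, 0.324 and 0.184 CPM at D0, 2.67, 2.12, 1.09 and 0.842 at D19, 1.07, 1.98, 1.12 and 0.919 at D80 and 1.11, 1.09 and 1.63 in tumors in KO mice. In WT mice *Cyp1b1* stood at 0, 0.458, 0.0905 and 0.502 CPM at D0, 0.189, 0.284, 1.15 and 1.17 at D19, 0.77, 1.28, 0.371 and 0.414 at D80 and 0.276, 1.55, 7.87, 0.74 and 0.104 in tumors. It rose in KO colon at D19 (log2 fold change 2.64, SE 0.45, adjusted p = 0.00334) and at D80 (log2 fold change 2.23, SE 0.34, adjusted p = 0.000443). KO colon at D0 had 9, 9, 11 and 7 counts, so *Cyp1b1* passed the count filter there through treated colon. These calls alone are thus no support for a rise. In WT colon its values were 1.38 (SE 0.78) and 1.39 (SE 0.77), with no call. Single WT tumor 542 held 7.87 CPM. Fibroblast markers moved with *Cyp1b1*, and all 6 rose in KO colon at D19 and D80, while 6 rose at D19 and 2 at D80 in WT colon. At D19 their summed level was 5631, 4781, 1566 and 1980.2 CPM in KO colon and 1461, 1404, 3249 and 3129 CPM in WT colon, against 317 to 442 CPM in KO and 354 to 819 CPM in WT colon at D0. In each genotype the same 2 mice were highest in both measures at D19, as were mice 541 and 542 in WT colon at D80. In KO colon at D80 mouse 535 had the most *Cyp1b1* but the lowest sum, 1571 CPM in a range up to 2087 CPM. WT tumor 542 had a sum of 1180 CPM, within a range of 905 to 1568 CPM in WT tumors. The highest KO tumor was 544 for *Cyp1b1* and 543 for the sum. The part of fibroblasts in the rise was not tested. *Cyp1a1*, the classic Ah receptor target, stood at 0.296, 0.182, 0.0589 and 0.0262 CPM at D0, 0.0842, 0.26, 0.21 and 0.0821 at D19, 0.11, 0.338, 0.0319 and 0.153 at D80 and 0.027, 0.0521 and 0.0371 in tumors in KO mice. In WT mice *Cyp1a1* stood at 0.177, 0.102, 0.498 and 0.251 CPM at D0, 0.33, 0.308, 0.274 and 0.281 at D19, 0.437, 0.417, 0.741 and 0.888 at D80 and 0, 0, 0.387, 0.321 and 0 in tumors. All KO libraries were below all WT libraries at D19 (log2 fold change -0.91, SE 0.44, adjusted p = 0.445) and D80 (log2 fold change -1.87, SE 0.56, adjusted p = 0.681), at 26 counts over 4 KO libraries at each stage against 43 and 80 counts over 4 WT libraries. *Cyp1a2*, a liver enzyme, had 4 counts over all 32 libraries.

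**Figure D4:**
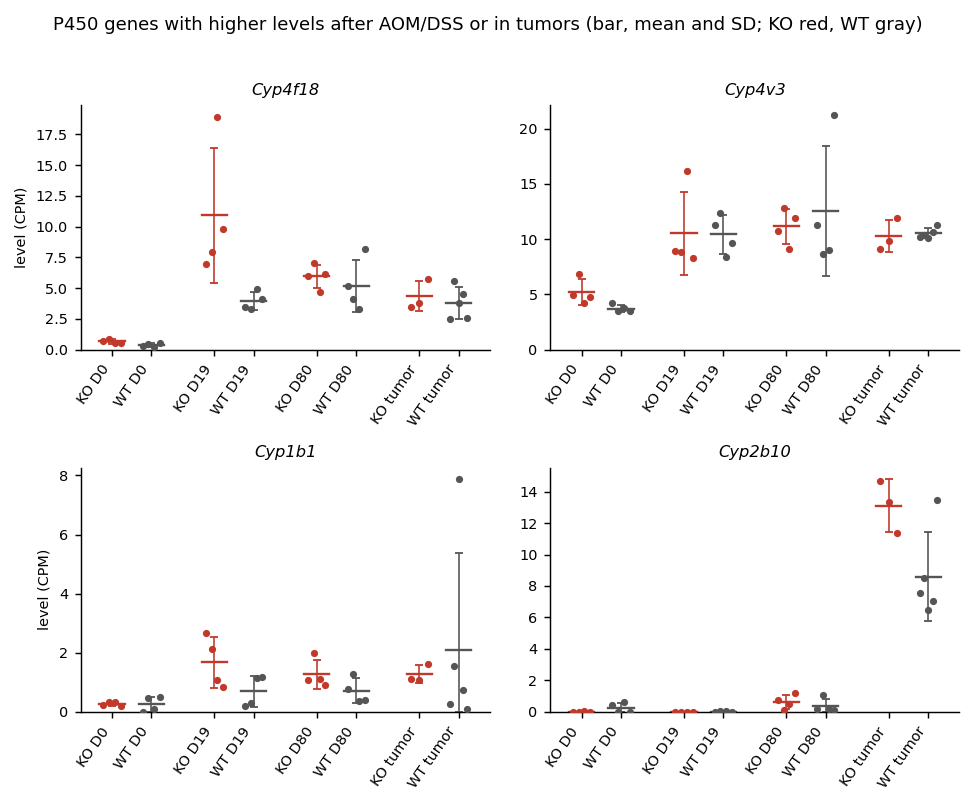
Level of Cyp4f18, Cyp4v3, Cyp1b1 and Cyp2b10 in CPM (vertical axis, from 0) by group. Points are libraries, red for KO and gray for WT, and bars are the mean and SD; Cyp4f18 lies under 1 CPM at D0 and above 2 CPM in every later library, and Cyp2b10 lies above 6 CPM only in tumors.

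In tumors 4 of 39 P450 genes tested rose in KO and 2 of 38 in WT mice, against 10.3% and 8% of all genes, so these shares were not above the background. *Cyp2b10*, a target of the nuclear receptor CAR in liver, stood at 0, 0, 0.0589 and 0 CPM at D0, 0.0211, 0, 0 and 0 at D19, 0.74, 0.106, 0.479 and 1.19 at D80 and 14.7, 13.3 and 11.4 in tumors in KO mice. In WT mice *Cyp2b10* stood at 0.441, 0, 0.633 and 0 CPM at D0, 0, 0.0237, 0.0249 and 0 at D19, 0.166, 1.07, 0.198 and 0.118 at D80 and 7.55, 8.49, 6.46, 7.03 and 13.5 in tumors. It was at most 0.633 CPM at D0, at most 0.0249 CPM at D19, at most 1.19 CPM in D80 colon and at least 6.46 CPM in every tumor. It rose 20.9-fold in KO (log2 fold change 4.39, SE 0.55, adjusted p = 0.000913) and 19.96-fold in WT tumors (log2 fold change 4.32, SE 0.62, adjusted p = 0.00103), and the WT value was 5.54 without D80 mouse 542. WT D80 colon had 8, 36, 8 and 2 counts, so *Cyp2b10* passed the count filter in WT mice through the tumors. The WT call alone is thus no support for a rise. *Cyp2a5*, a coumarin hydroxylase, had 0.405, 1.198 and 1.15 CPM in KO tumors, which is 92 counts, against 1 count over the 4 KO D80 libraries, a ratio of 133 with an exact 95% counting interval of 23.3 to 5306. The gene passed the count filter in KO mice only through the tumors, so that its call is no support for a rise. In WT mice *Cyp2a5* had 0.401, 0.879, 0.608, 0 and 0.052 CPM in tumors, or 69 counts, against 3 counts at D80, a ratio of 17.0 (5.58 to 84.4), and it did not pass the count filter there. The interval covers counting error only. *Cyp4f39*, related to the human gene for an omega hydroxylase of very long fatty acids in skin, stood at 0.0806, 0.327, 0.412 and 0.236 CPM at D0, 0.147, 0.238, 0.316 and 0.103 at D19, 0.932, 0.464, 0.638 and 0.551 at D80 and 1.41, 2.03 and 1.596 in tumors in KO mice. In WT mice *Cyp4f39* stood at 0.132, 0.0509, 0.0905 and 0.314 CPM at D0, 0.424, 0.545, 0.274 and 0.21 at D19, 0.52, 0.805, 0.395 and 0.414 at D80 and 1.08, 3.58, 2.46, 0.4932 and 2.26 in tumors. It rose in KO (log2 fold change 1.35, SE 0.29, adjusted p = 0.00778) and WT tumors (log2 fold change 1.76, SE 0.54, adjusted p = 0.0343, groups overlapping) and in KO colon at D80 (log2 fold change 1.27, SE 0.42, adjusted p = 0.0277). KO colon at D0 had 3, 9, 14 and 9 counts, so *Cyp4f39* passed the count filter there through D80. The D80 call alone is thus no support for a rise. The WT tumor call did not hold without tumor 541, 542 or 579 or D80 mouse 541 or 555 (adjusted p 0.0644 to 0.0943), nor the D80 call without D80 mouse 527 or 543 or D0 mouse 852 or 915 (0.0545 to 0.0851).

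Markers of squamous epithelium rose in the same tumors, with a summed level of 399 to 612 CPM in KO and 109.9 to 1537 CPM in WT tumors, against 3.86 to 27.6 CPM in KO and 8.26 to 18.5 CPM in WT D80 colon, and 7 of 7 tested rose in each genotype. Their part in the levels of *Cyp2b10*, *Cyp2a5* and *Cyp4f39* was not tested. Hepatocyte markers summed to 22.8 to 32.3 CPM in KO and 10.8 to 47.3 CPM in WT tumors for 8 genes together.

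With the mouse as a block, since 3 KO and 3 WT mice gave both a tumor and D80 colon, 21 P450 genes were called in KO and 23 in WT tumors. The pairing ended the KO calls of *Cyp4x1* (adjusted p = 0.0742), *Cyp2c67* (0.11) and *Cyp2c69* (0.0548). In WT mice it ended those of *Cyp4b1* (0.122) and *Cyp2c23* (0.0649) and took *Cyp2d34*, *Cyp4f16*, *Cyp4f37* and *Cyp4f13* to log2 fold changes of -0.996, -0.57, -0.77 and -0.86, under a fold of 2. It added a call of *Cyp1b1* in WT tumors (log2 fold change 1.53, SE 0.42, adjusted p = 0.0348 by edgeR), whose value without the block was 1.44, or -0.22 with tumor 542 left out. Over all genes 20.2% were called in KO and 23.2% in WT tumors with the block.

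Some P450 genes had no call or a single one. *Cyp2j6*, an epoxygenase of the mouse intestine, stood at 54.2, 63.1, 84.4 and 65.3 CPM at D0, 58.2, 57.8, 72.01 and 47.6 at D19, 74.3, 63.8, 69.5 and 69.97 at D80 and 74.2, 68.1 and 93.6 in tumors in KO mice. In WT mice *Cyp2j6* stood at 61.4, 74.5, 65.5 and 59.5 CPM at D0, 57.3, 65.1, 60.7 and 61.9 at D19, 62.8, 73.1, 63.2 and 78.3 at D80 and 64.1, 68.2, 87.8, 74.1 and 70.4 in tumors. KO and WT overlapped at each stage, as did D80 colon and tumors, and its log2 fold changes lay between -0.19 (KO colon at D19) and 0.16 (KO tumors) over the 10 comparisons of 2 groups, with SE between 0.09 and 0.20. *Cyp2w1*, known from human colorectal tumors, averaged 1.02 ± 0.561 CPM in KO tumors (SD, n = 3) and 1.25 ± 0.378 CPM in KO D80 colon (SD, n = 4), and 1.06 ± 0.725 CPM in WT tumors (SD, n = 5) and 1.16 ± 0.702 CPM in WT D80 colon (SD, n = 4), with no call. *Cyp2u1*, a fatty acid hydroxylase, ranged from 0.246 to 0.584 CPM in KO and 0.374 to 0.896 CPM in WT colon at D19 and was never called. *Cyp2r1*, the vitamin D 25-hydroxylase, fell in WT tumors (log2 fold change -1.36, SE 0.36, adjusted p = 0.0169) and was not called in KO tumors (0.196 (SE 0.57)). The other genes tested and never called were *Cyp1a1*, described above, *Cyp2b13*, *Cyp2j13*, *Cyp4a10* and *Cyp4f17*.

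Genes around the P450 step were taken from lists chosen by function. Of 18 redox partners and transcription factors, 17 were tested in tumors against D80 colon, and 5 fell in KO and 4 in WT mice, none rising. There 16.4% of all genes tested fell in KO and 13.5% in WT mice. *Hnf4g*, a nuclear receptor of gut epithelium, fell in KO (log2 fold change -2.03, SE 0.16, adjusted p = 0.000214) and WT tumors (log2 fold change -1.81, SE 0.31, adjusted p = 0.00226), and *Ahrr*, the repressor of the Ah receptor, fell in KO (log2 fold change -3.52, SE 0.49, adjusted p = 0.00132) and WT tumors (log2 fold change -2.45, SE 0.46, adjusted p = 0.00336). *Ppara* and *Vdr* also fell in both genotypes, and the bile acid receptor gene *Nr1h4* in KO. *Hnf4a* had -0.93 (SE 0.297) in KO and -0.598 (SE 0.33) in WT tumors, and *Por*, the electron donor of these enzymes, 0.13 (SE 0.13) and 0.09 (SE 0.21), all without a call. From D0 to D19 *Ahrr* and *Hif1a* rose in KO and *Ahrr* in WT colon, and at D80 *Ahr* (log2 fold change 1.299, SE 0.12, adjusted p = 2.5e-05) and *Hif1a* rose in KO and *Hif1a* in WT colon. None of the list was called between genotypes at any stage.

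Of 34 genes of conjugation and later metabolism, 33 were tested in each D19, D80 and tumor comparison. At D19 7 fell and none rose in KO colon, and 5 fell and 2 rose in WT colon. At D80 12 fell and none rose in KO, and 3 fell and 2 rose in WT colon, with medians of -0.88 and 0.03. In tumors 14 fell and 1 rose in KO mice, and 23 fell and 1 rose in WT mice, with medians of -0.52 and -1.41. Of all genes tested, 2.52% fell in KO and 4.04% in WT colon at D19, and 7.63% and 3.25% at D80. In tumors 16.4% of all genes fell in KO and 13.5% in WT mice. *Ugt2b5*, a glucuronosyltransferase, fell at each stage, with -3.34 (SE 0.73) in KO and -2.89 (SE 0.44) in WT colon at D19 (adjusted p = 0.0128 and 0.000673). *Aldh1a1*, an aldehyde dehydrogenase, fell in KO (log2 fold change -3.54, SE 0.32, adjusted p = 0.00031) and WT tumors (log2 fold change -3.597, SE 0.26, adjusted p = 8.08e-05), and *Gsta4*, a glutathione transferase, was the gene that rose in both (1.36 and 1.32). Of the P450 genes of other families, 7 to 8 of 15 were tested, and none fell in any of these comparisons. *Cyp7b1*, an oxysterol hydroxylase, rose in KO colon at D19 (log2 fold change 3.37, SE 0.41, adjusted p = 0.000483) and D80 (log2 fold change 2.42, SE 0.33, adjusted p = 0.000244), and in WT colon at D19 (log2 fold change 1.598, SE 0.44, adjusted p = 0.0143) and D80 (log2 fold change 1.54, SE 0.37, adjusted p = 0.0257). *Tbxas1*, thromboxane synthase, rose at D19 in KO (log2 fold change 2.76, SE 0.32, adjusted p = 0.000337) and WT colon (log2 fold change 1.96, SE 0.25, adjusted p = 0.000294), and at D80 likewise (2.51 and 2.01).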

How the data were processed

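The authors made single-end 75-nt RNA-Seq libraries, used FastQC 0.11.5 for quality, took STAR for the alignment to mm10 and counted reads per GENCODE gene with Subread; the strand setting is not given in the sources used here. The deposited values are raw counts per gene, not normalized. No column of another sample was used. Total counts, 18951121 to 47623288 per library, set the precision of low genes. Groups and mouse numbers came from the labels, and p-values measure the spread between mice.

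Counts were tested with edgeR 4.0.16 in R 4.3.3 (TMM, filterByExpr with a minimum count of 10, quasi-likelihood F test, Benjamini-Hochberg adjustment over all genes tested), fitting the groups of each comparison. The SE was the size of the log2 fold change divided by the root of F. Calls needed a fold over 2 and an adjusted p under 0.05, or p under 0.01 before adjustment between KO and WT tumors. The procedure was tested on simulated data. Alternatives were DESeq2 1.42.0, DESeq2-type size factors, no filter, at least 10 counts in each library, 1 fit of 32 libraries, title number or mouse as a block, and leaving out libraries. In all, 6 mice gave both D80 colon and tumor, the pairing resting on the animal; the correlation of their deviations from the group means was 0.0385 to 0.257, over 0.1 in 3 of 6 pairs. Named genes were a list of 22 P450 genes and the called genes with the largest changes, up to 10 each way per comparison. Members and lists were chosen with earlier results of these data known.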

Additional observations from a re-analysis of the deposited data

Results flagged for a closer look

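In each group of 4 or 5 libraries, the library farthest from the rest was set against Dixon's 95% limit for P450 genes, and 21 of 249 sets of a gene and a group passed it. Chance gives about 1 in 20 such sets. WT tumor 555 held 5 of them, with 18.6 CPM of *Cyp2d10*, 4.09 of *Cyp2d26*, 26.0 of *Cyp2s1*, 15.98 of *Cyp4f13* and 17.6 of *Cyp4f14*. The D19 colon of KO mouse 811 held 4, with 0.842 CPM of *Cyp2c23*, 66.2 of *Cyp4f16*, 11.6 of *Cyp4f37* and 16.1 of *Cyp4v3*.

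The D80 colon of WT mouse 581 stood apart with 1.95 CPM of *Cyp2c23* and 9.41 of *Cyp2c66*, that of KO mouse 535 with 13.7 CPM of *Cyp2c40* and 49.8 of *Cyp4f16*, and that of KO mouse 544 with 54.4 CPM of *Cyp2d34*. WT mouse 542 stood apart with 1.07 CPM of *Cyp2b10* in D80 colon and 7.87 CPM of *Cyp1b1* in its tumor, and WT tumor 579 with 13.5 CPM of *Cyp2b10*. At D0 KO mouse 853 had 3.596 CPM of *Cyp2j9*, KO mouse 872 had 202.6 CPM of *Cyp3a13* and WT mouse 851 had 25.7 CPM of *Cyp4f13*. At D19 WT mouse 805 had 8.37 CPM of *Cyp2d11*. The part of library quality in these values was not tested.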

How the results depend on the processing

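Over 1836 alternative values of 126 gene results, 0 changed direction. The 126 were the called results and a list of further ones, so for most a stable direction was likely from the start. Outside this set *Cyp1b1* in WT tumors against D80 colon went from 1.44 to -0.22 without WT tumor 542. All 126 kept their call with DESeq2-type size factors, and with DESeq2 itself 113 kept it and 13 passed the threshold in addition. Of 1075 values with 1 library left out, 58 lost the threshold and 10 gained it. The number of P450 genes called between KO and WT was 3 at D0 with DESeq2, 3 with no filter and 3 with the title number as a block, 2 at D19 with DESeq2 and 1 with 1 fit of all libraries, and 1 at D80 with DESeq2. The shares of all genes were, in this order, 0.267, 0.202, 0.391, 1.5, 0.83 and 0.169%. Without the 3 libraries high in mitochondrial counts, 19 P450 genes were called at D19 in KO and 11 at D80 in WT colon, where DESeq2 called 12 and 1 fit of all libraries 10. Of all genes, 15.4, 16.8, 11.8 and 13.7% were called in these 4 fits, in this order. The D19 interaction had 6 P450 genes with DESeq2 (0.85% of all genes), 2 with no filter (0.0578%) and 5 without those libraries (0.161%). The D80 interaction had 1 with DESeq2 (0.084%). With 1 library left out, calls ranged from 0 to 2 between KO and WT at D0, 8 to 19 at D19 in KO, 10 to 11 at D19 in WT, 17 to 22 at D80 in KO, 6 to 11 at D80 in WT, 21 to 24 in KO and 25 to 29 in WT tumors, and 0 to 5 for the D19 interaction. The shares of all genes ranged, in this order, from 0 to 0.254%, 9.11 to 15.4%, 12.5 to 14.4%, 19.7 to 22.9%, 6.81 to 16.8%, 20.6 to 29.3%, 17.9 to 25.4% and 0 to 0.215%. With the mouse as a replicate block 21 were called in KO and 23 in WT tumors (20.2% and 23.2% of all genes). Of the 75 genes, 32 had too few counts to test.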
